A study of Rattus norvegicus with 6 samples.

Results

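Chemokines are small secreted proteins that guide leukocytes along a gradient, and chemokine receptors are the seven-helix, G protein-coupled receptors that read them. Ligands are grouped by the spacing of their first cysteines into the CC, CXC, CX3C and XC families, and each receptor is named for the ligand family it binds. In the diabetic kidney, injured tubule cells and resident macrophages are known sources of monocyte-attracting ligands, and monocytes enter the tissue through the receptor encoded by Ccr2. The genes described here are those whose symbol on the array is Ccl, Ccr, Cxcl or Cxcr followed by a number, together with Cx3cl1, Cx3cr1, Xcl1 and Xcr1. Of the 18166 genes with a named signal, 52 met this definition, and they comprised 34 ligands and 18 receptors. Atypical receptors and Ccrl2 were left out of this set. Each of the 52 genes was represented by 1 transcript cluster, which is a set of probes across the transcript.

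Kidney RNA was hybridised to Rat Gene 2.0 ST arrays (Affymetrix), with 3 arrays per group. It came from diabetic rats treated with Shenqi Jiangtang Granule (SJG group), an extract of several herbs, and from diabetic rats given saline (diabetic group). All animals were male Sprague Dawley rats with streptozotocin-induced diabetes, labelled as 17 weeks old, and the abstract of the paper adds a high-fat diet. The labels name the tissue as kidney and the methods as kidney cortex, the dose is not in the labels, and the text ties the comparison to the higher of its oral doses. Both groups were therefore diabetic. Rats without diabetes and those on the lower dose were not analysed here. Streptozotocin destroys insulin-producing cells, which makes this a model of insulin deficiency. The labels number the samples as replicates without naming the animals, so a p-value reflects only how far these samples spread, and that spread may be technical. The titles also carry an unexplained bracketed code whose number differs between the groups, so whatever that code stands for and the treatment cannot be told apart. In a mixed tissue, fewer cells of a type and less RNA per cell cannot be told apart.

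Values are deposited log2 signals, and a log2 fold change is the SJG mean minus the diabetic mean. A gene was called lower or higher in the SJG group at an unadjusted limma p under 0.05 and a fold change above 1.5, which is 0.585 on the log2 scale. These are the thresholds of the study's methods. The median signal of the 6 arrays ran from 4.68 to 4.88, and the arrays correlated with each other at 0.961 to 0.988 across genes, which are not independent replicates. The kidney markers had a mean log2 signal of 9.71 to 10.04 on the 6 arrays, with Slc34a1 of the proximal tubule at 11.77 to 12.40 and Umod of the thick limb at 11.44 to 11.96. Diabetic replicate 3 lay close to the SJG arrays in many of the results below, and diabetic replicate 2 lay farthest from them. For the main results, values are also given without these arrays.

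In the SJG group, 7 chemokine genes were lower and 0 were higher. They were the monocyte and macrophage ligands Ccl2, Ccl6 and Ccl3, the lymphoid ligand Ccl19, and the receptors Ccr2, Cx3cr1 and Ccr6. These 7 of 52 genes are 13.5%, while 2.12% of all genes tested were lower and 0.991% were higher. The other 45 genes did not pass the thresholds. The median log2 fold change of the 52 genes was -0.16, with 34 below 0 and 18 above, against a median of 0.00 over all genes, of which 49.7% lay below 0. With p-values adjusted by Benjamini-Hochberg over the whole array, limma placed 0 of the 52 genes under 0.05. An unadjusted limma p under 0.05 was found for 9 of the 52, and for 1133 of all 18166 genes. The unmoderated test of each gene on its own left 0 at either level, and limma with a trended, robust variance left 0 after adjustment and 5 before. For that fit the share of all genes at an unadjusted p under 0.05 was not counted. Over the whole array the lowest adjusted p of the limma comparison was 0.152, and the unmoderated test left 2 genes under 0.05, neither of them a chemokine gene.

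**Figure D1:**
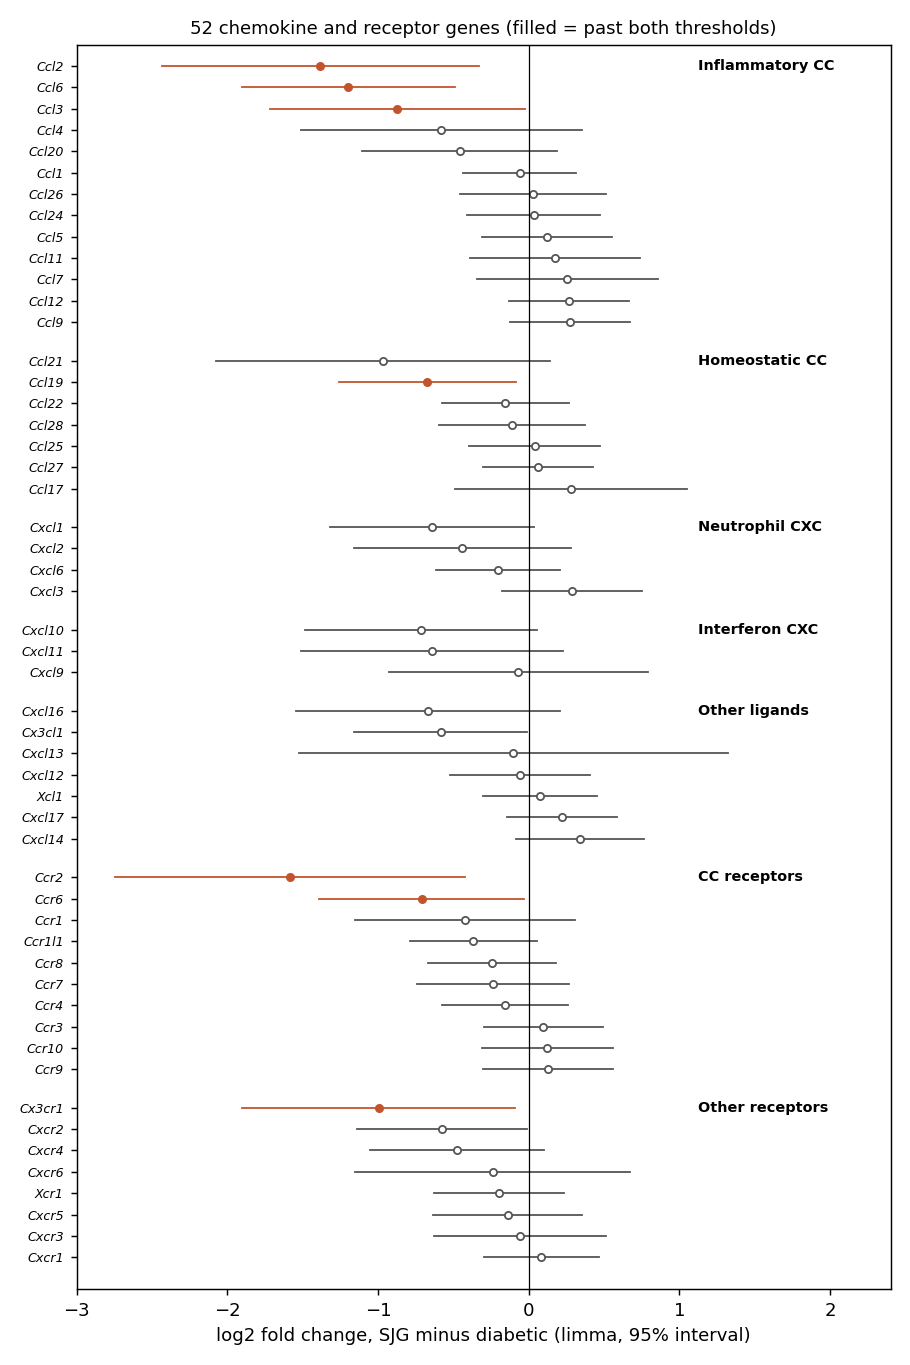
Log2 fold change (SJG minus diabetic) of each of the 52 genes with its 95% interval from limma, ordered within 7 role groups. The 7 filled points, all left of 0, passed both thresholds, and Ccr2 lies farthest left at -1.59.

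The count depended on the diabetic arrays. Without diabetic replicate 3, 19 of the 52 genes were lower, where 5.58% of all genes were. In that fit Ccr2 (limma adjusted p = 0.00312), Ccl6 (adjusted p = 0.00646) and Cx3cr1 (adjusted p = 0.0154) also passed an adjusted p of 0.05, which 0.914% of all genes did. Leaving out the diabetic array that lay closest to the SJG arrays tends to widen a difference. These adjusted p-values are therefore no added support, and with all 6 arrays 0 genes of the whole array passed an adjusted limma p of 0.05. Without diabetic replicate 2, 2 of the 52 genes, Ccl2 and Ccl6, were lower, where 1.28% of all genes were. In the same fit Cxcl13 and Ccl17 were higher, where 0.936% of all genes were. The count was 4 without SJG replicate 1, where 5.41% of all genes passed in either direction, and 3 without SJG replicate 2, where 2.27% did. It was 7 without SJG replicate 3 (3.37% of all genes) and 6 without diabetic replicate 1 (3.06%).

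Among the 13 inflammatory CC ligands, which draw monocytes, macrophages, T cells or eosinophils to injured tissue, 3 were lower and 10 did not pass. Ccl2 encodes MCP-1, the main attractant of monocytes. Its log2 signals in replicates 1 to 3 were 5.23, 5.57 and 6.25 for the SJG group and 6.47, 8.43 and 6.30 for the diabetic group. The groups did not overlap, but the lowest diabetic array lay just above the highest SJG array, and diabetic replicate 2 stood well above the rest. Ccl2 was 2.61-fold lower in the SJG group (log2 fold change -1.38, standard error 0.478, limma adjusted p = 0.747). Without diabetic replicate 2 the log2 fold change was -0.70 and Ccl2 still passed, and without SJG replicate 1 it was -1.16 and Ccl2 did not pass.

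Ccl6, a ligand of macrophages and other myeloid cells known from rodents, had log2 signals of 6.39, 6.16 and 6.67 in the SJG group and 7.93, 8.15 and 6.74 in the diabetic group. Here 2 diabetic arrays were clearly high, and the third lay just above the highest SJG array. Ccl6 was 2.30-fold lower (log2 fold change -1.20, standard error 0.321, limma adjusted p = 0.746). It had the smallest unadjusted p of the 52 genes and passed the thresholds without any 1 of the 6 arrays, with log2 fold changes of -1.63 to -0.93. Of the 52 genes, 3 had all SJG arrays below all diabetic arrays, Ccl2, Ccl6 and the receptor-like gene Ccr1l1, as did 5.30% of all genes. The opposite held for 1 gene, Cxcl17, and for 5.20% of all genes.

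Ccl3 encodes MIP-1 alpha, a ligand of the receptors on monocytes and T cells. Its log2 signals were 5.13, 4.62 and 4.99 in the SJG group and 5.50, 6.85 and 4.99 in the diabetic group, so the groups overlapped through diabetic replicate 3. The log2 fold change was -0.87 (standard error 0.383, limma adjusted p = 0.772). Ccl3 passed without diabetic replicate 3 (-1.27). It did not pass without any other single array, at -0.98, -0.72 and -0.91 without SJG replicates 1, 2 and 3, and at -1.01 and -0.34 without diabetic replicates 1 and 2. Its neighbour Ccl4, which encodes MIP-1 beta, had 6.13 in diabetic replicate 2 and 3.90 to 4.64 on the other 5 arrays, a log2 fold change of -0.58 (standard error 0.423). Without diabetic replicate 2 that of Ccl4 was 0.02.

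The other inflammatory CC ligands did not pass, and their difference from Ccl2 was not tested. Ccl7 (MCP-3) and Ccl12, whose receptor Ccr2 they share with Ccl2, had log2 fold changes of 0.26 (95% interval -0.35 to 0.86) and 0.27 (95% interval -0.13 to 0.67). Ccl5 (RANTES), a ligand of T cells and monocytes, had log2 signals of 6.95, 6.39 and 6.62 in the SJG group and 6.71, 6.37 and 6.52 in the diabetic group. Its groups overlapped, with a log2 fold change of 0.12 (95% interval -0.31 to 0.55). Ccl9 had 0.28 (95% interval -0.12 to 0.67). Ccl20, the ligand of Ccr6, had -0.46 (95% interval -1.11 to 0.19), and it passed without SJG replicate 3 (-0.72) and without diabetic replicate 3 (-0.71). The eotaxin genes Ccl11, Ccl24 and Ccl26 and the T cell ligand Ccl1 had log2 fold changes of -0.06 to 0.17.

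Among the 10 CC receptors, Ccr2 and Ccr6 were lower and 8 did not pass. Ccr2, the receptor of Ccl2 on inflammatory monocytes, had the largest difference of the 52 genes. Its log2 signals were 5.10, 4.32 and 4.38 in the SJG group and 6.62, 7.29 and 4.65 in the diabetic group. Diabetic replicates 1 and 2 stood far above the SJG arrays, and diabetic replicate 3 fell between them. Ccr2 was 3.0-fold lower (log2 fold change -1.59, standard error 0.527, limma adjusted p = 0.746). It did not pass without diabetic replicate 1 (-1.37) or without diabetic replicate 2 (-1.03), and it was at -2.35 without diabetic replicate 3.

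Ccr1, a receptor of Ccl3 and, in mice, of Ccl6, had log2 signals of 3.52, 3.57 and 3.84 in the SJG group and 3.94, 4.94 and 3.31 in the diabetic group. The diabetic arrays thus included both the highest and the lowest value, and the log2 fold change of -0.42 (95% interval -1.16 to 0.31) did not pass. Ccr6, which B cells, dendritic cells and some T helper cells carry, had 3.40, 3.19 and 3.70 in the SJG group and 3.68, 4.97 and 3.79 in the diabetic group. Only diabetic replicate 2 was clearly high, and the other Ccr6 values lay below the array medians of 4.68 to 4.88. The log2 fold change of Ccr6 was -0.71 (standard error 0.309, limma adjusted p = 0.772). It did not pass without diabetic replicate 2 (-0.30) or without SJG replicate 1 (-0.69) or 2 (-0.59). Ccr1l1, Ccr8, Ccr7, Ccr4, Ccr3, Ccr10 and Ccr9 had log2 fold changes of -0.37 to 0.13.

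**Figure D2:**
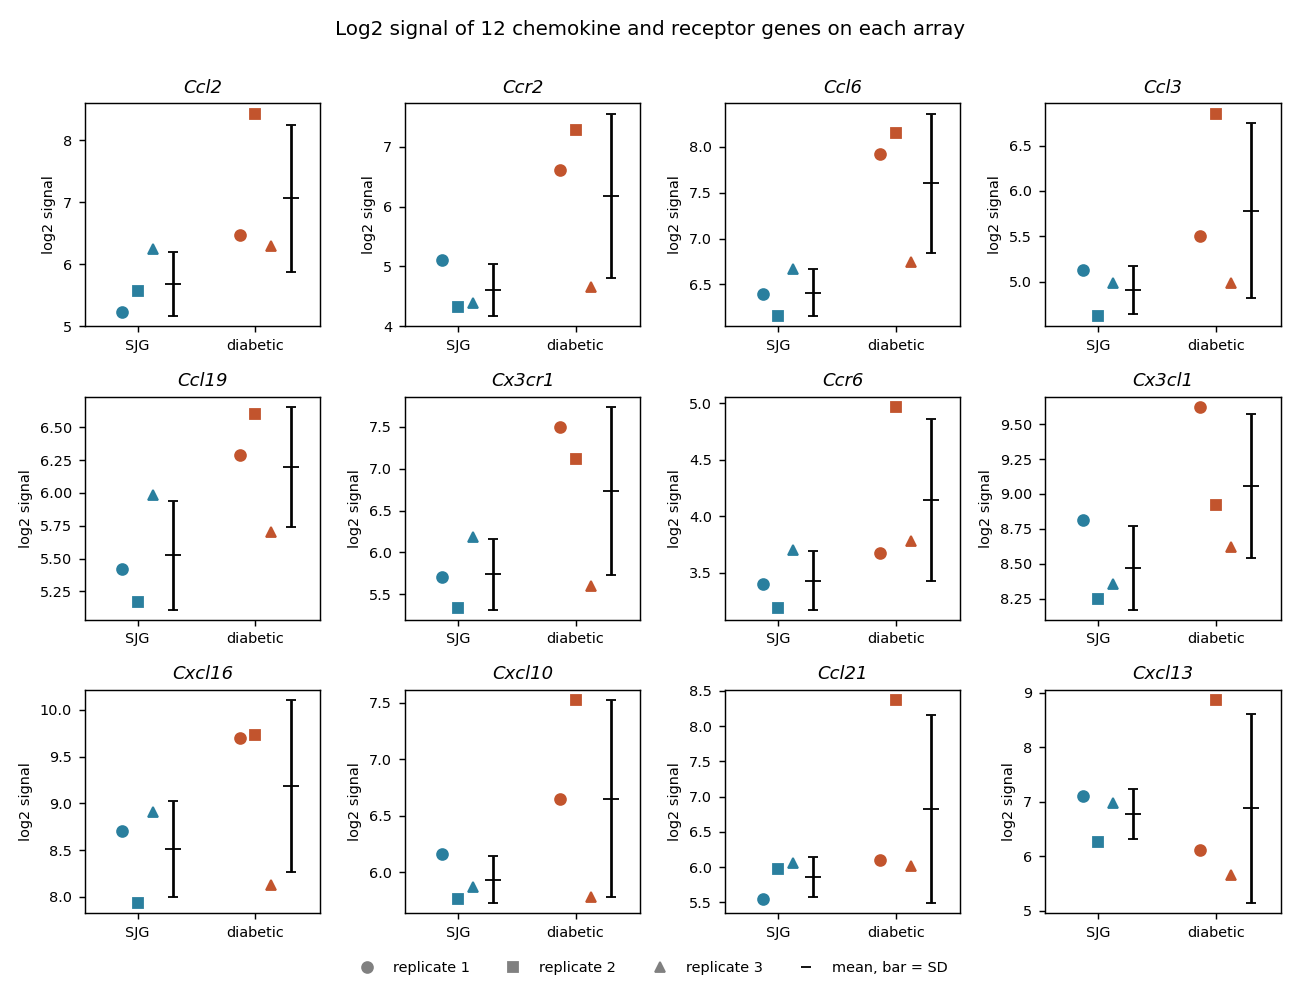
Log2 signal of 12 genes on each of the 6 arrays, with the symbol shape giving the replicate number and the black bar the mean and SD of the 3 arrays of a group. Diabetic replicate 3 (triangle) lies within or next to the SJG range for all 12 genes except Cxcl13, where it lies below it, while diabetic replicate 2 (square) is the highest array for 10 of the 12.

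Fractalkine, encoded by Cx3cl1, is made by tubule and endothelial cells as a membrane-bound ligand, and its receptor Cx3cr1 marks resident kidney macrophages and patrolling monocytes. Cx3cr1 had log2 signals of 5.70, 5.34 and 6.18 in the SJG group and 7.50, 7.11 and 5.60 in the diabetic group. Again the first 2 diabetic arrays were above every SJG array and diabetic replicate 3 was among them. Cx3cr1 was 1.99-fold lower (log2 fold change -0.99, standard error 0.412, limma adjusted p = 0.772). It did not pass without SJG replicate 1 (-0.98) or 2 (-0.79) or without diabetic replicate 1 (-0.61) or 2 (-0.81), and was at -1.56 without diabetic replicate 3. Cx3cl1 had 8.81, 8.24 and 8.36 in the SJG group and 9.62, 8.92 and 8.62 in the diabetic group, with diabetic replicate 1 the highest. Its log2 fold change of -0.58 (limma adjusted p = 0.772, standard error 0.261) came just short of the fold threshold.

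Cxcr2, the receptor through which neutrophils follow CXC ligands, lay just under the threshold as well, with 3.73, 3.60 and 3.25 in the SJG group and 4.35, 4.45 and 3.51 in the diabetic group. These values all lay below the array medians of 4.68 to 4.88. The log2 fold change of Cxcr2 was -0.58 (standard error 0.255, limma adjusted p = 0.772). Both Cx3cl1 and Cxcr2 passed without diabetic replicate 3 (-0.80 and -0.87) and without SJG replicate 1 (-0.75 and -0.68). The receptor Cxcr4, which binds the stromal ligand Cxcl12, had -0.48 (95% interval -1.06 to 0.10), and Cxcl12 itself had -0.06 (95% interval -0.52 to 0.41). Cxcr3 of activated T cells had -0.06 (95% interval -0.63 to 0.51), and the receptors Cxcr6, Xcr1, Cxcr5 and Cxcr1 had log2 fold changes of -0.24 to 0.08.

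The homeostatic CC ligands direct lymphocytes and dendritic cells to lymphoid tissue, skin or gut, and 1 of 7 was lower. Ccl19, a ligand of Ccr7, had log2 signals of 5.42, 5.17 and 5.98 in the SJG group and 6.29, 6.60 and 5.70 in the diabetic group, with an overlap of diabetic replicate 3 and SJG replicate 3. It was 1.60-fold lower (log2 fold change -0.67, standard error 0.267, limma adjusted p = 0.772). Ccl19 did not pass without SJG replicates 1 or 2 (-0.62 and -0.50) or without diabetic replicates 1 or 2 (-0.63 and -0.47). Ccl21, the other ligand of Ccr7, had 5.54, 5.97 and 6.06 in the SJG group and 6.10, 8.37 and 6.01 in the diabetic group. A single array, diabetic replicate 2, held the difference, and the log2 fold change of -0.97 (limma adjusted p = 0.772, standard error 0.502) became -0.20 without it. Ccr7 had -0.23 (95% interval -0.74 to 0.27).

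Cxcl13, which gathers B cells into follicles, showed the widest spread of the 52 genes. Its log2 signals were 7.10, 6.26 and 6.98 in the SJG group and 6.12, 8.86 and 5.65 in the diabetic group. The highest and the lowest arrays were both diabetic, and the log2 fold change was -0.10 (95% interval -1.52 to 1.32). Without diabetic replicate 2 it was 0.89, higher in the SJG group and past the thresholds. Ccl17, a T cell ligand, had 0.28 (95% interval -0.49 to 1.05) and 0.69 without the same array. Ccl22, Ccl28, Ccl25 and Ccl27 had log2 fold changes of -0.16 to 0.06.

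None of the neutrophil-attracting or interferon-induced CXC ligands passed. Cxcl1 (CINC-1), which recruits neutrophils through Cxcr2, had log2 signals of 4.53, 5.03 and 4.99 in the SJG group and 5.26, 6.29 and 4.93 in the diabetic group. Its log2 fold change was -0.64 (standard error 0.308, limma adjusted p = 0.772), and -0.25 without diabetic replicate 2. Cxcl2, Cxcl6 and Cxcl3 had log2 fold changes of -0.44, -0.20 and 0.29. Cxcl10, which interferon induces and activated T cells follow through Cxcr3, had 6.16, 5.76 and 5.87 in the SJG group and 6.65, 7.52 and 5.78 in the diabetic group. Diabetic replicates 1 and 2 were high and diabetic replicate 3 was not, and Cxcl10 had -0.72 (standard error 0.350, limma adjusted p = 0.772) as its log2 fold change. Cxcl11 had -0.64 (95% interval -1.51 to 0.23) and Cxcl9 had -0.07 (95% interval -0.93 to 0.79). Without diabetic replicate 2, Cxcl10 was at -0.28, Cxcl11 at -0.25 and Cxcl2 at 0.02. Without diabetic replicate 3, Cxcl1 (-0.92), Cxcl2 (-0.74), Cxcl10 (-1.15) and Cxcl11 (-1.15) passed the thresholds.

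Of the 7 remaining ligands none passed. Cxcl16, a membrane-bound scavenger receptor and the ligand of Cxcr6, had log2 signals of 8.71, 7.94 and 8.91 in the SJG group and 9.70, 9.73 and 8.13 in the diabetic group. It repeated the order seen for Cx3cr1, with 2 high diabetic arrays and the third inside the SJG range, and a log2 fold change of -0.67 (95% interval -1.55 to 0.21). Without diabetic replicate 3 it was -1.20 and passed the thresholds. Cxcl14 had the highest log2 fold change of the 52 genes at 0.34 (95% interval -0.08 to 0.77). Cxcl17 and Xcl1 had 0.22 and 0.08.

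The promoters of the genes that were lower are shown because chemokine genes are classical targets of NF-kB, which binds kappa B sites, and of AP-1. The sequences are from RefSeq (build GRCr8) and run from 250 bases before to 50 bases after the annotated start. They were found for 40 of the 52 genes and for 5 of the 7 lower genes. Those of Ccl2 and Ccl3 were missing, so the motif counts below do not cover them. Both strands were searched for a loose kappa B-like motif, GGG and CC with any 5 bases between them, and for TGANTCA, an AP-1-like motif that reads the same on both strands. Capitals mark matches to the first motif in the 3 promoters printed, Ccl6 for its small p, Ccl19 for its matches and Ccr2 for the largest difference.
Ccl6 chr10:68883317-68883616 (- strand): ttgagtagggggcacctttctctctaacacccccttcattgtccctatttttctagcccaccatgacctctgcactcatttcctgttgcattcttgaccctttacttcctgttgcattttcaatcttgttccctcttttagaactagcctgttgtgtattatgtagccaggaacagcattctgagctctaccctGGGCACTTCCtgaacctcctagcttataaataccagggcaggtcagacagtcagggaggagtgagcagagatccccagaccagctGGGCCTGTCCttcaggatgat
Ccl19 chr5:61761115-61761414 (- strand): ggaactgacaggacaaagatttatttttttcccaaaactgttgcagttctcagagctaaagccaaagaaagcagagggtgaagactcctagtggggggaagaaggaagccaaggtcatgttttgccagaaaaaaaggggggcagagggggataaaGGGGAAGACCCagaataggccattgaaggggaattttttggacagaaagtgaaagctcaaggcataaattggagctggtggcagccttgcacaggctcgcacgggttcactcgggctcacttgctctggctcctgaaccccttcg
Ccr2 chr8:132611953-132612252 (+ strand): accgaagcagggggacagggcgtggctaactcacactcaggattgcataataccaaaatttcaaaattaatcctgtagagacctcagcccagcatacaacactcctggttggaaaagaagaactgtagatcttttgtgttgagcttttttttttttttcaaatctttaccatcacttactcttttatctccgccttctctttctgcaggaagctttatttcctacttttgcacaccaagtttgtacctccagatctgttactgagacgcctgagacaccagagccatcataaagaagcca
In Ccl6 a match, GGGCACTTCC, began 56 bases before the start, and a second lay after the start. In Ccl19 overlapping matches began 95 and 94 bases before the start, and the printed promoter of Ccr2 held none. The kappa B-like motif occurred in 2 of the 5 promoters of lower genes, in 21 of the 40 promoters (52.5%) and in 47.3% of all 33469 promoters. The AP-1-like motif occurred in 0 of the 5, in 7 of the 40 (17.5%) and in 7.33% of all promoters. Cxcl10, which did not pass, had kappa B-like matches that began 187 and 128 bases before its start, the first of them GGGAAATTCC, and the AP-1-like match TGAGTCA at 96 bases before it. A match is a description of these letters and not a measured binding site.

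Many of these genes lie side by side, and neighbours in the genome differed in what they showed. In the order of GRCr8, chromosome 10 carries 13 of the 52 genes, among them the run Ccl2, Ccl7, Ccl11, Ccl12 and Ccl1. Ccl2 at the end of this run was lower, with a log2 fold change of -1.38, while the other 4 had -0.06 to 0.27. In a second run on the same chromosome, Ccl5 and Ccl9 had 0.12 and 0.28, and the adjacent Ccl6, Ccl3 and Ccl4 had -1.20, -0.87 and -0.58. On chromosome 8, which carries 11 of the genes, Ccr2 (-1.59) follows Ccr1l1 (-0.37) and Ccr3 (0.10) at the end of a run that begins with Cxcr6. On chromosome 19, Cx3cl1 (-0.58) lies between Ccl17 (0.28) and Ccl22 (-0.16). These differences between neighbours were not tested.

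**Figure D3:**
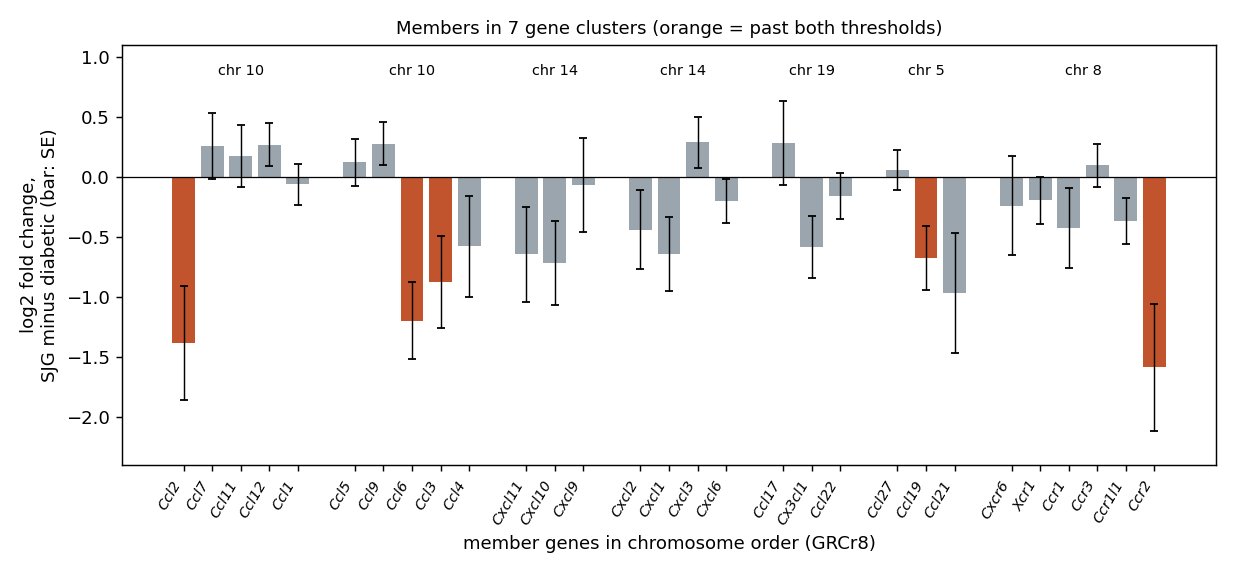
Log2 fold change (SJG minus diabetic, bar: standard error) of the genes of 7 clusters in chromosome order, with genes past both thresholds in orange. Ccl2 at -1.38 stands beside 4 neighbours at -0.06 to 0.27, and Ccl6, Ccl3 and Ccl4 are adjacent and all below 0.

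The 3 diabetic arrays were not alike in these genes. Diabetic replicate 2 was the highest of the 6 arrays in 27 of the 52 genes (51.9%) and in 6 of the 7 lower genes, against 21.9% of all genes. It exceeded the SJG mean by more than 1 on the log2 scale in 19 of the 52 genes, diabetic replicate 1 in 5 and diabetic replicate 3 in 0. Over all genes these shares were 2.98%, 1.32% and 0.292%. Diabetic replicates 1, 2 and 3 lay above every SJG array in 19, 30 and 8 of the 52 genes (36.5%, 57.7% and 15.4%), against 28.9%, 30.4% and 22.2% of all genes.

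The genes fell into recurring patterns over the arrays. In 14 of the 52 genes (26.9%, and 10.1% of all genes) diabetic replicates 1 and 2, and not 3, lay above all SJG arrays. These included the myeloid genes Ccr2, Cx3cr1, Ccl3 and Ccr1, the membrane-bound ligands Cx3cl1 and Cxcl16, and Cxcl10 and Cxcl11. The rest of this pattern were Ccl19, Ccl21 and Ccr7, which are linked to lymphocytes, and Ccr8, Cxcl1 and Cxcr2. In 11 genes (21.2%, and 11% of all genes) only diabetic replicate 2 lay above the SJG arrays. Among these were Ccl4, Cxcl2, Cxcl9 and Cxcl12, and Cxcl13, Cxcr3 and Cxcr5, which are also linked to lymphocytes. In 18 genes (34.6%, and 46.9% of all genes) no diabetic array lay above all SJG arrays. These patterns describe single arrays and were not tested.

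**Figure D4:**
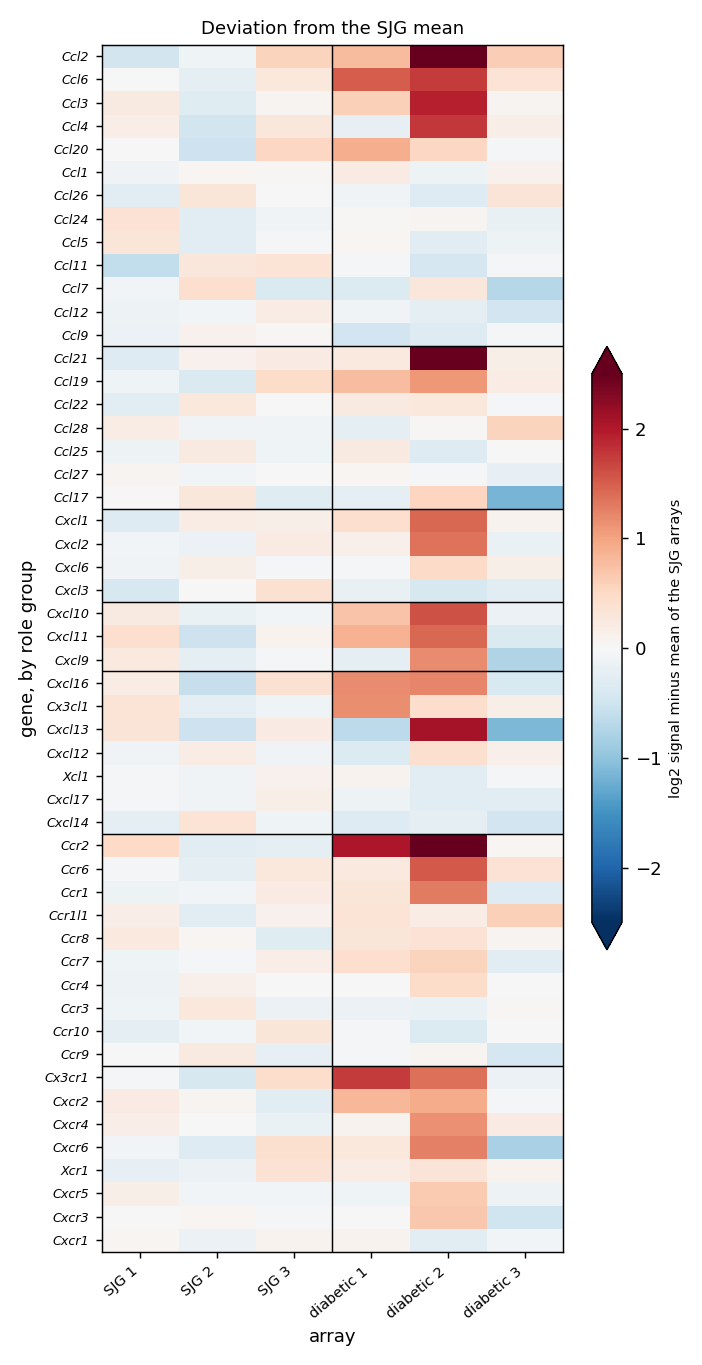
Log2 signal of the 52 genes on each array minus the gene's mean over the 3 SJG arrays, by role group (horizontal lines). Red marks values above that mean and the scale ends at 2.5, which Ccl2, Ccl21 and Ccr2 exceed in diabetic replicate 2, while the column of diabetic replicate 3 is pale for most genes.

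Markers of leukocytes moved with these genes to different degrees. With all 6 arrays, 2.12% of all genes were lower and 0.991% were higher, the shares to set beside the list counts below. Of 15 macrophage and monocyte markers, 7 were lower, 8 did not pass and 0 were higher. Their median log2 fold change was -0.65. The 2 with the smallest p were Lyz2, the lysozyme of macrophages (log2 fold change -1.25, standard error 0.347), and the endotoxin co-receptor Cd14 (-0.94, standard error 0.297). The summed signal of the 15 markers, each taken back from the log2 scale, was 1505 to 2183 in the SJG group and 2111 to 5460 in the diabetic group. Diabetic replicate 3 held the 2111, and so lay inside the SJG range as it did for Ccr2 and Cx3cr1. Lyz2, the brightest marker with log2 signals of 9.16 to 11.38, weighs most in this sum. The mean of the log2 signals, where each marker counts alike, was 6.10 to 6.39 in the SJG group. It was 7.08, 7.59 and 6.31 in diabetic replicates 1, 2 and 3. The count of lower macrophage markers was 3 without diabetic replicate 2, 13 without diabetic replicate 3, 4 without diabetic replicate 1 and 2 without SJG replicate 2. The part of macrophage number in the chemokine results was not tested.

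Of 10 neutrophil markers 0 passed, with S100a8 and S100a9 at log2 fold changes of 0.03 and -0.03. The summed signal of the 10 was 140.3 to 182 in the SJG group and 145 to 168 in the diabetic group. Their mean log2 signal of 3.70 to 4.01 lay below the array medians of 4.68 to 4.88. Little can be read from a lack of difference in such dim genes. Of 11 T cell markers, 1 was lower, Cd4 (log2 fold change -1.24, standard error 0.345), which rat macrophages also carry. The count of lower T cell markers was 2 without diabetic replicate 3. Cd3e, a subunit of the T cell receptor complex, had -0.06 (standard error 0.176). Its log2 signals of 4.13 to 4.56 also lay below the array medians. No B cell, NK cell, dendritic cell or endothelial marker passed, of 4, 6, 6 and 5 measured. The NK cell markers had a mean log2 signal of 3.69 to 4.39, so the limit for dim genes applies to them too. The arrays have no detection call, so no marker could be called absent.

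Other differences ran along the same arrays. Of 7 tubule injury markers 4 were lower. They included Spp1, which the study had named among its network hubs from these samples, so it is no independent evidence. Havcr1 encodes kidney injury molecule 1. Its log2 signals were 5.80, 4.36 and 6.48 in the SJG group and 10.37, 9.99 and 6.76 in the diabetic group. Of 11 immediate early genes 5 were lower, and their mean log2 signal was 6.68 to 7.02 in the SJG group and 7.61, 9.11 and 6.93 in diabetic replicates 1, 2 and 3. The count of lower immediate early genes was 2 without diabetic replicate 2, 10 without diabetic replicate 3 and 9 with the replicate number as a block. Diabetic replicate 2, the highest array of most chemokine genes, was thus also the highest for these stress-responsive genes. Of 3 red blood cell genes 2 were higher in the SJG group, and 1 was without diabetic replicate 1 or SJG replicate 2. With the unmoderated test, 0 genes of the macrophage and immediate early lists passed, and 1 tubule injury marker did. The part of tissue handling or of injury in the chemokine results was not tested.

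**Figure D5:**
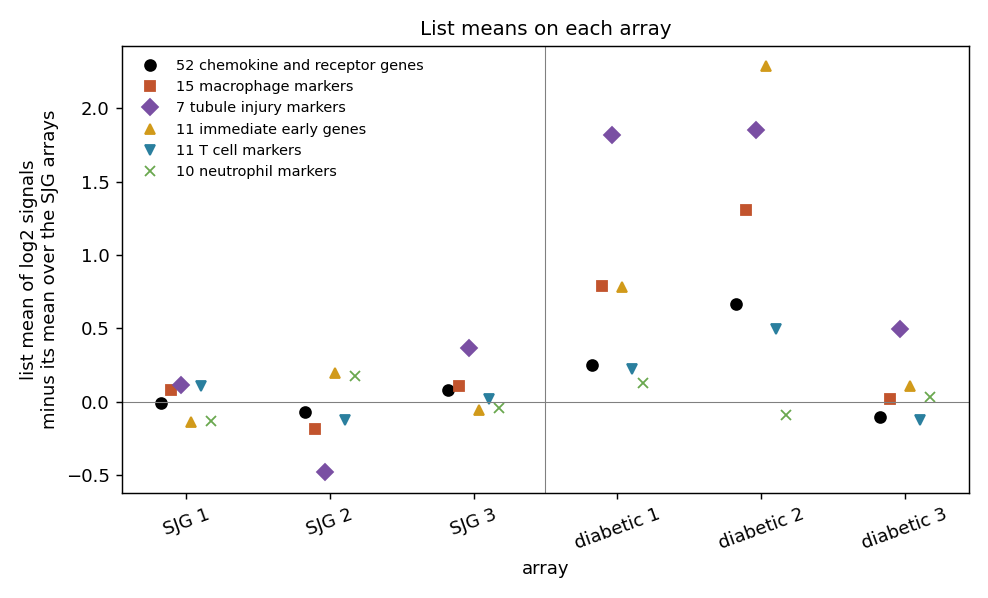
Mean log2 signal of 6 gene lists on each array minus the list's mean over the 3 SJG arrays. The chemokine genes, macrophage markers and immediate early genes are all highest in diabetic replicate 2 and near 0 in diabetic replicate 3, and the neutrophil markers stay within 0.2 of 0 on all arrays.

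The genes through which chemokine receptors signal were also measured. Of 23 such genes, 5 were lower, 18 did not pass and 0 were higher. Their median log2 fold change was -0.36. Of the 5, the smallest p belonged to Dock2, which activates Rac in migrating leukocytes (log2 fold change -0.67, standard error 0.244), and Was, which drives actin assembly in blood cells (-0.87, standard error 0.326), and the other 3 were Elmo1, Rac2 and Rgs1. The kinase gene Lyn had a smaller p than any of them, but its log2 fold change of -0.56 (standard error 0.198) did not reach the fold threshold. The count was 0 without diabetic replicate 2 and 0 without SJG replicate 2, 2 without diabetic replicate 1 and 3 without SJG replicate 3. Of 12 leukocyte adhesion genes, 3 were lower, 0 were higher and all 12 had a log2 fold change below 0. Icam1, a ligand of leukocyte integrins, had -1.02 (standard error 0.260) and the integrin subunit Itgam had -0.77 (standard error 0.229). The study had named both among its network hubs from these samples, so they are no independent evidence, and the third was the integrin subunit Itgal. The adhesion count was 5 without SJG replicate 1, 2 without SJG replicate 2 or diabetic replicate 2, and 7 without diabetic replicate 3.

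Of 13 cytokines that induce chemokines, 2 were lower, Il18 (log2 fold change -0.77, standard error 0.282) and the macrophage growth factor Csf1 (-0.79, standard error 0.298). The count was 0 without diabetic replicate 2 or SJG replicate 2, and 1 without diabetic replicate 1 or SJG replicate 3. Il1b, a strong inducer of Ccl2 and Cxcl1, had 6.17 in diabetic replicate 2 and 3.42 to 3.74 on the other 5 arrays, and its log2 fold change of -0.82 (standard error 0.555) did not pass. Tnf had 0.10 (standard error 0.173). Of 7 proteases that cleave chemokines, 1 was lower, the macrophage elastase Mmp12 (-1.41, standard error 0.407). The protease count was 2 without SJG replicate 1 and 3 without diabetic replicate 3. Of 6 atypical receptors and platelet chemokines 0 passed, with log2 fold changes of -0.29 to 0.48, and the Cxcl12 scavenger Ackr3 had 0.11 (standard error 0.176).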

How the data were processed

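The 3 arrays of the SJG group were compared with the 3 arrays of the diabetic group. The authors deposited 1 log-scale signal for each of 36685 transcript clusters and array, taken here as log2 because the highest value is 13.7. The sources used here name no software, background correction or normalization for these values, and no further normalization was applied. The number of arrays limits the precision. Transcript clusters with 1 gene (18511) were named through the array annotation, with symbols updated by gene number to GRCr8 (18394 matched), 575 with several genes were left out, and the brightest cluster stood for each of 18166 genes.

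limma 3.58.1 in R 4.3.3 (lmFit and eBayes) gave the p-values, log2 fold changes, standard errors and 95% intervals, with Benjamini-Hochberg adjustment over all genes. The unmoderated test was an ordinary t-test on the lmFit values of each gene, without eBayes. The code was tested on simulated data. Members and lists were chosen with earlier results of these data known. Named genes were those past the thresholds, their partner ligands or receptors, the 2 with the smallest p in each role group, and up to 2 per other list. Members outside this rule, such as Cxcl13, Ccl17 and Cxcl16, were described after their values were seen. Genes of the other lists outside it, such as Il1b, Lyn, Tnf, Cd3e and Ackr3, were likewise not picked by a preset rule. Alternatives were quantile normalization, median centring, an unmoderated test, a trended and robust variance, only genes above the median signal, the mean of transcript clusters, a block for replicate number, other fold thresholds and leaving out each array. No array was left out of the main comparison.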

Additional observations from a re-analysis of the deposited data

How the results depend on the processing

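Of the 52 genes, 7 passed both thresholds. The count was 4 with quantile normalization (2.71% of all genes passed), 3 with a trended and robust variance (2.82%), 0 with the unmoderated test (0.842%), 4 among the 16 genes above the median signal (3.59%) and 3 at a fold change above 2 (0.584%). With the unmoderated test the signalling, cytokine, protease, T cell and red blood cell lists also had 0 genes past the thresholds, and the adhesion list had 2. Leaving out single arrays gave 3 to 19. The genes lower with quantile normalization were Ccl6, Ccr2, Ccl2 and Ccl19, all of them among the 7. With a trended and robust variance they were Ccl6, Ccl19 and Ccr6, so Ccl2 and Ccr2 did not pass there. Above the median signal they were Ccl6, Ccl2, Ccl19 and Cx3cr1, as Ccr2, Ccr6 and Ccl3 lay below it. The median log2 fold change of the chemokine genes was -0.61 among those above the median signal, against -0.05 over all genes of that fit. That filter used the mean of both groups, so a gene high only in the diabetic arrays could enter through them. Without single arrays the median was -0.27 to -0.04. Without diabetic replicate 2, Ccl17 was at 0.69, Ccr1 at 0.014 and Cxcl13 at 0.89, and without diabetic replicate 3 they were at -0.16, -0.80 and -0.72. Cxcl13 was at 0.16 without SJG replicate 2. Of these, Ccl17 at -0.16, Ccr1 at 0.014 and Cxcl13 at 0.16 and 0.89 have the opposite sign of the main value. The cause of these changes was not tested beyond the arrays named. With the replicate number as a block the count was 10, including all 7 (3.49% of all genes). The numbers share no stated origin, and the deviations of same-numbered arrays correlated at -0.02, -0.29 and 0.00. The lack of a detection call limits how firmly dim genes can be read.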
